A study of Homo sapiens with 6 samples.

Results

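The transcriptome of HLE cells that carry a control short hairpin RNA (shRNA) was described on its own. HLE is an established line of undifferentiated human hepatocellular carcinoma. The series holds 6 RNA-seq libraries in 3 groups of 2: a first and a second ZNF281 knockdown line (kd.1 and kd.2) and the control line. The 2 control libraries were the ones used, and the 4 knockdown libraries served only to check the label of the targeted gene. Lentivirus was added at 10 infectious particles per cell (multiplicity of infection 10) and infected cells were selected with puromycin over 7 days, so the control line is a selected, infected population grown in medium with serum and not an untouched parental culture. The deposited table gives 21372 features, of which 19503 are named genes and were kept. Levels are FPKM, fragments scaled to transcript length and library total. Values are given for control replicate 1 and then for control replicate 2, each with its own rank among the named genes where a rank is given. With 2 libraries of 1 group there is no test, and the labels do not say whether the duplicates came from separate cultures.

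Hepatocytes are recognised by their plasma proteins, drug-metabolising cytochromes, urea cycle and bile transporters, and by the nuclear factors HNF4A, CEBPA and the FOXA proteins that switch those genes on. They are epithelial cells with the simple keratins KRT8 and KRT18, whereas bile duct cells add KRT7 and KRT19. Poorly differentiated liver tumours often lose the hepatocyte programme and can take on genes of mesenchymal cells, such as vimentin, while losing E-cadherin from their junctions.

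The libraries were close to each other, with a difference that followed transcript length. A gene was counted as expressed at 1 FPKM or more in both control libraries. This held for 10585 named genes, or 54.3%, and the shares of the gene lists below are read against that figure. At 10 FPKM or more in both stood 31% of named genes, at 100 FPKM or more 4.4%, and 28% were under 0.1 FPKM in both. The log2 difference between the libraries, on the log2(FPKM + 0.1) scale, had an SD of 0.22 over the expressed genes, and 80.8% of them differed by no more than 1.2-fold. Transcripts of up to 1000 bases had a median of 1.2 times the FPKM in replicate 2 that they had in replicate 1 (400 genes), and those over 8000 bases had 0.873 times (825 genes). The absolute depth is not known from FPKM, so no counting interval is given. ZNF281, the gene targeted in the other lines, stood at 4.35 and 4.71 FPKM in kd.1, 4.37 and 4.47 in kd.2, and 9.52 and 8.43 in the control libraries, where it ranked 6415 and 6647.

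**Figure D1:**
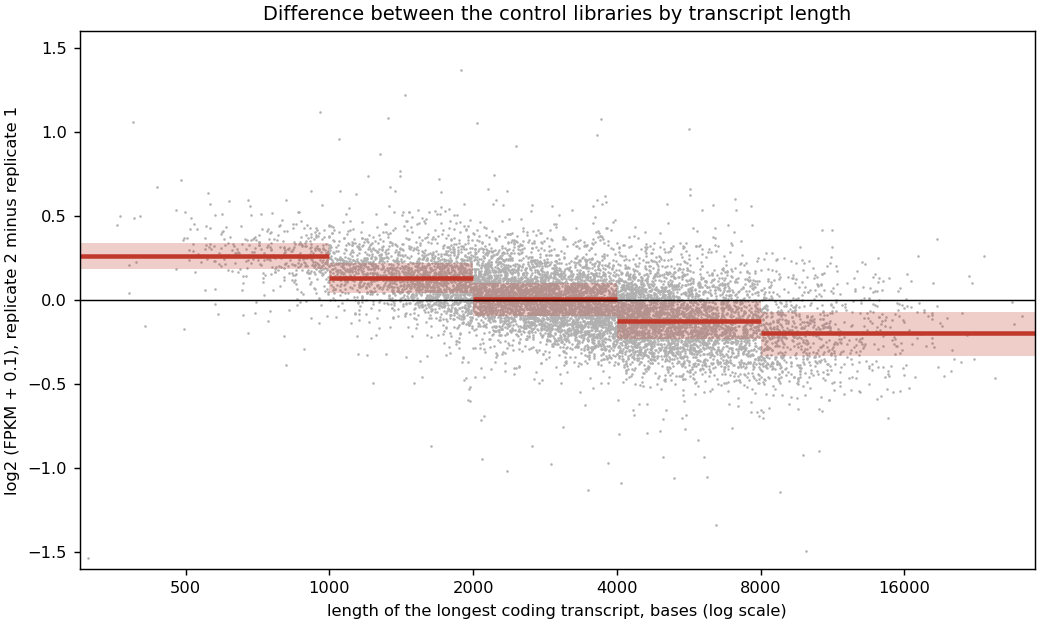
Each grey point is a gene at 1 FPKM or more in both control libraries, placed by the length of its longest coding GENCODE transcript (x axis, bases, log scale) and by the log2(FPKM + 0.1) of replicate 2 minus that of replicate 1 (y axis). Red lines are medians of 5 length classes and bands their quartiles, falling from 0.26 in transcripts of up to 1000 bases to -0.2 in those over 8000 bases; 9 genes lie outside the axes.

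The most abundant transcripts were those of iron storage, glycolysis, protein synthesis and the actin cytoskeleton. FTH1 (gene ID 2495, chromosome 11), the ferritin heavy chain, was first in both libraries at 5531 and 6674 FPKM. GAPDH, the glycolytic dehydrogenase, was second in both at 4899 and 5701 FPKM. AKR1B1 (gene ID 231, chromosome 7), aldose reductase, which turns glucose into sorbitol, stood at 4110 and 4421 FPKM and ranked 3 and 4. The ferritin light chain FTL had 2309 and 2882 FPKM, ranking 11 in each library. S100A4 (gene ID 6275, chromosome 1), a small calcium-binding protein linked to motile and metastatic cells, had 2250 and 2996 FPKM and ranked 12 and 10.

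Of the 30 highest named genes, 20 encode ribosomal proteins, among them RPL41 at 4024 and 4979 FPKM. The other 10 are FTH1, GAPDH, AKR1B1, FTL and S100A4, the elongation factor EEF1A1 (3838 and 3931 FPKM), beta-actin ACTB (3309 and 3580 FPKM), the nucleolar protein NPM1 (2075 and 2175 FPKM), enolase ENO1 (1974 and 2116 FPKM) and the actin-binding profilin PFN1 (1723 and 2130 FPKM). The 77 ribosomal protein genes together held 19.6% and 22% of the summed FPKM of named genes. The 100 highest genes held 30.8% and 33.4%, and 98 of them were shared by the top 100 of both libraries. Many of these genes have processed pseudogene copies, so their exact levels depend on how shared reads were assigned.

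**Figure D2:**
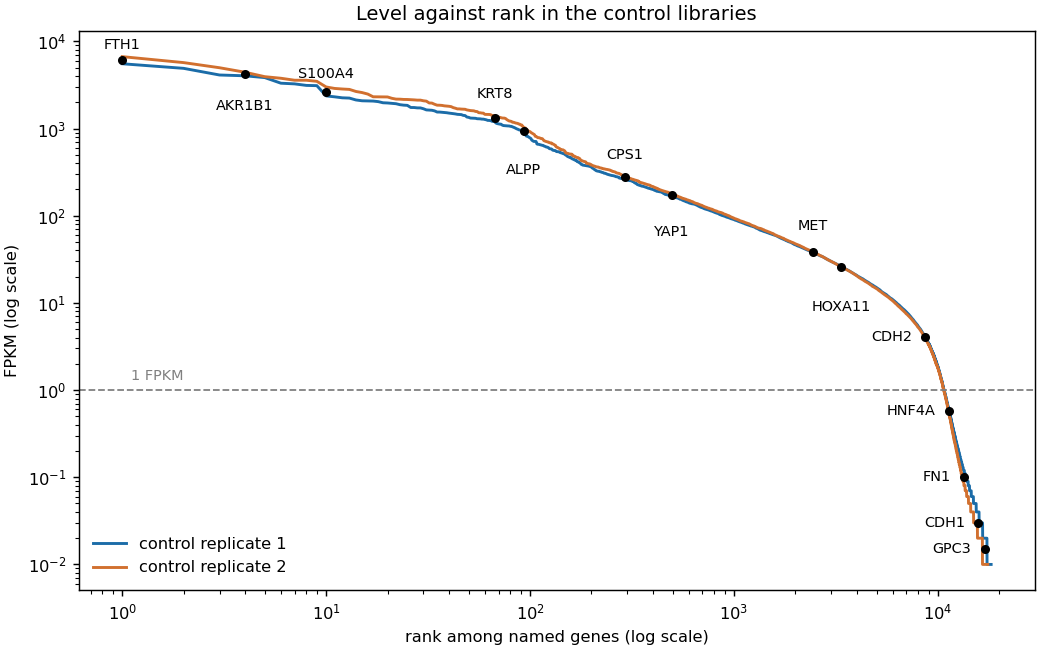
FPKM (y axis, log scale) against rank among the named genes (x axis, log scale) in control replicate 1 (blue) and replicate 2 (orange), with black points at the mean FPKM of 14 genes described in the text. The curves cross 1 FPKM just beyond rank 10000, and the hepatocyte factor HNF4A, fibronectin FN1, E-cadherin CDH1 and glypican GPC3 lie below that line.

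The start regions of 4 genes are shown because they belong to genes at both ends of the range of levels: KRT8, the simple epithelial keratin, S100A4 and the placental alkaline phosphatase ALPP are among the 100 highest genes, and ARG1, the last enzyme of the urea cycle in liver, is listed at 0. Each line gives the 250 bases before an annotated RefSeq start (GRCh38.p14), 5′ to 3′ on the gene's strand. CG dinucleotides, the sites of DNA methylation, are in capitals. KRT8 lies at chr12:52926470-52926719 (minus strand), S100A4 at chr1:153545807-153546056 (minus), ALPP at chr2:232378501-232378750 (plus) and ARG1 at chr6:131572976-131573225 (plus).
KRT8: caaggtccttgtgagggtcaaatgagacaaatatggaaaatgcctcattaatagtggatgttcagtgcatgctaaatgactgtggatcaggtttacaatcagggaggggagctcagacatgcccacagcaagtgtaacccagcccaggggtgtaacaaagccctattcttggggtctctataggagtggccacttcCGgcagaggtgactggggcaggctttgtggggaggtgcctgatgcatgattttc
S100A4: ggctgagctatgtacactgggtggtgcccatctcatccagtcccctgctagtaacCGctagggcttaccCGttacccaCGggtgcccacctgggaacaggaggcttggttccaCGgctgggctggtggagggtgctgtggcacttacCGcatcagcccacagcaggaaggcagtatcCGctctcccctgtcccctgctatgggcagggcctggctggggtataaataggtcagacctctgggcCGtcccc
ALPP: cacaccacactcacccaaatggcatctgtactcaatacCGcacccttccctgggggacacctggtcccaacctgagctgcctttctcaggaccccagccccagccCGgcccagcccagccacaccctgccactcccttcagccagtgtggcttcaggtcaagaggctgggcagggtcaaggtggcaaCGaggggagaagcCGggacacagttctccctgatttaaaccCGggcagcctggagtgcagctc
ARG1: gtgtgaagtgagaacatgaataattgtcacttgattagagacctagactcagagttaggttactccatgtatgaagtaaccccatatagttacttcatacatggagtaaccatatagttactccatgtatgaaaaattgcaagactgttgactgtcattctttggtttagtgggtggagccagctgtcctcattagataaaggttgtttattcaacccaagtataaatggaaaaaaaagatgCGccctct

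Each window lies before the 1 start that the promoter entries used here hold for its gene. Other starts of these genes were not searched, and whether these cells use the start shown was not tested. These windows hold 1 CG in KRT8, 7 in S100A4, 5 in ALPP and 1 in ARG1, all below the median of 21 over the 8740 expressed genes with an entry in the promoter table. Of the 716 genes with an entry at 100 FPKM or more in both libraries, 37 had 5 or fewer. Of all expressed genes with an entry, 6.84% had 5 or fewer. The letters TATAAA, searched on both strands in the last 50 bases before the start, occur in S100A4, 31 bases before the start, and in ARG1, 29 bases before it. They occur in 1.97% of the expressed genes with an entry. Entries on chromosome 8 were left out, so genes there count as having none. The entries kept cover 82.6% of the expressed genes but 72.9% of the genes under 0.1 FPKM and 70.4% of those between 0.1 and 1 FPKM. These 2 low classes are under the 80% needed, so a comparison of expressed with low genes is void. Among classes of mean FPKM with enough entries, the median number of CG was 21 at 1 to 10 FPKM, 22 at 10 to 100 FPKM and 21 at 100 FPKM or more. TATAAA occurred in 2.16%, 1.55% and 4.59% of the genes with an entry in these classes, in the same order.

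Hepatocyte genes were mostly near 0, apart from part of the urea cycle and a few others. Over the lists of secreted proteins, drug and bile acid metabolism, and transporters, 13 of 82 genes (15.9%) reached 1 FPKM in both libraries, against 54.3% of all named genes, and 58 were under 0.1 FPKM in both. In bulk RNA, expression in few cells and little RNA in every cell cannot be told apart. The alpha-1 antitrypsin gene SERPINA1 stood at 2.18 and 2.72 FPKM. Transthyretin TTR was at 0.03 and 0 FPKM, the fibrinogen chain FGB at 0.05 and 0.01 FPKM, and the apolipoprotein APOA1 was listed at 0 in both. Of the 4 defining secreted proteins analysed here, 1, SERPINA1, was thus counted. Among the 7 of 40 secreted protein genes that were counted, complement C3 led with 110 and 90.4 FPKM, followed by vitronectin VTN with 14.1 and 14.5 FPKM and the copper carrier CP with 6.82 and 5.69 FPKM.

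Drug and bile acid metabolism was represented by 3 of 25 genes. These were the aldehyde dehydrogenase ALDH2 (38.2 and 38.6 FPKM), the carboxylesterase CES2 (23.4 and 22.6 FPKM) and the oxidase AOX1 (5.55 and 4.32 FPKM). The cytochromes CYP3A4, CYP2E1 and CYP7A1 were each at 0.05 FPKM or less in both libraries. Of 17 transporters and surface proteins, 3 were counted. SLCO1B3, a basolateral uptake carrier of adult hepatocytes, had 36.7 and 28.7 FPKM, while its neighbour in function SLCO1B1 had 0.02 and 0.06 FPKM. Levels are per gene, so the transcript form of SLCO1B3 is not known. ABCC2, the canalicular conjugate pump, had 35.8 and 30.5 FPKM, and the iron-sensing TFR2 had 10.7 and 11.7 FPKM. The bile salt carriers SLC10A1 (0.04 FPKM in each) and ABCB11 (0 and 0.02 FPKM) and the asialoglycoprotein receptor ASGR1 (0.05 and 0.07 FPKM) lay near 0.

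The urea cycle list differed from the other liver lists, with 6 of 8 genes counted, although ARG1 and NAGS were not among them. CPS1, the mitochondrial entry enzyme of the cycle, stood at 291 and 260 FPKM and ranked 248 and 321. ASS1, argininosuccinate synthase, had 236 and 245 FPKM, and the next enzyme ASL had 25.8 and 26.3 FPKM. The cytosolic arginase ARG1 was listed at 0 in both, and the mitochondrial form ARG2 had 10.2 and 9.55 FPKM. NAGS, which makes the activator of CPS1, was at 0.12 and 0.26 FPKM. Of 20 genes of gluconeogenesis and amino acid breakdown, 6 were counted, led by pyruvate carboxylase PC at 39.7 and 38.3 FPKM and the mitochondrial PCK2 at 13.6 and 12.2 FPKM. FBP1 was at 0.34 and 0.21 FPKM and the tyrosine aminotransferase TAT at 0.1 and 0.06 FPKM.

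**Figure D3:**
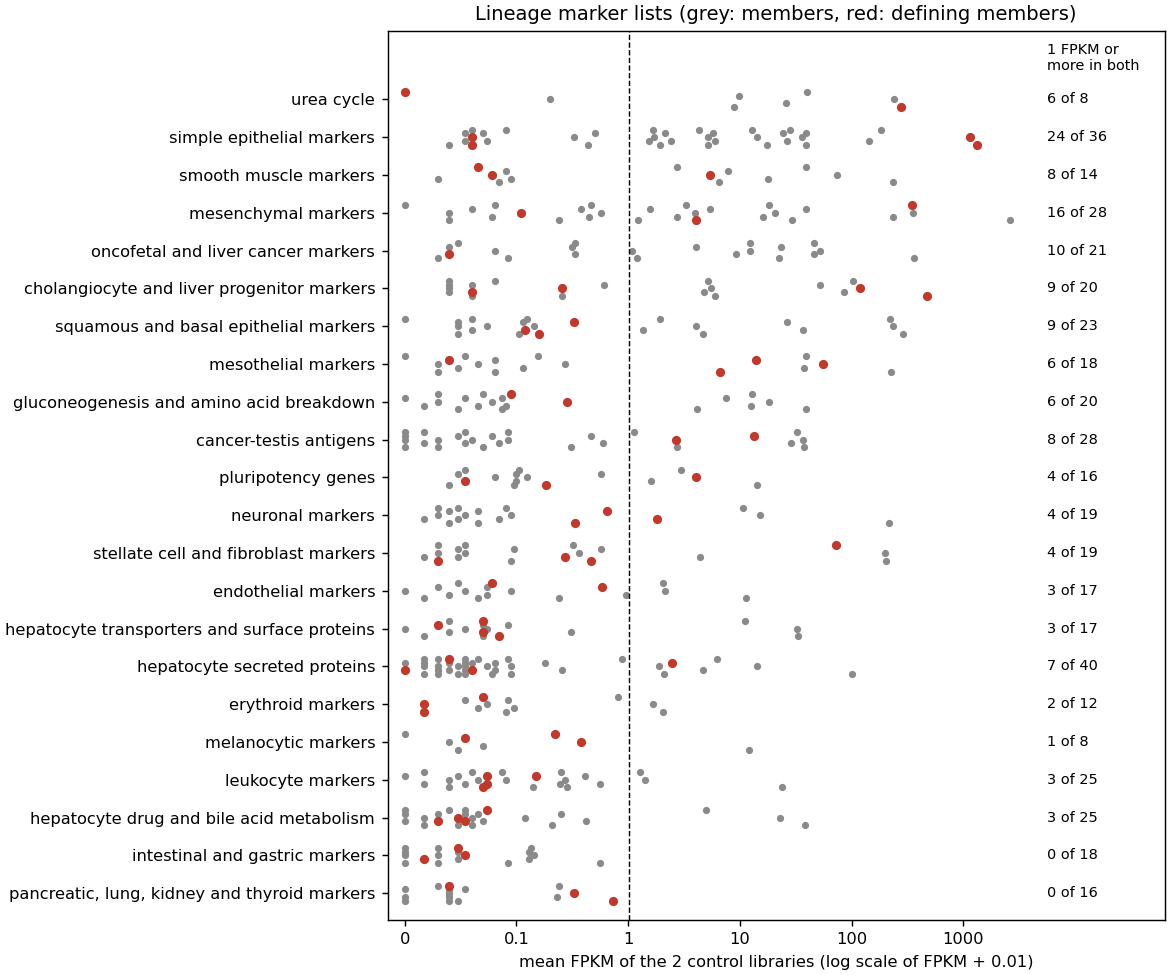
Each row is a lineage marker list, each grey point a member and each red point a defining member, placed by its mean FPKM over the 2 control libraries on a log scale of FPKM + 0.01; the dashed line is 1 FPKM. The figures at the right count members at 1 FPKM or more in both libraries, from 6 of 8 in the urea cycle to 0 of 18 in the intestinal and gastric list and 0 of 16 in the pancreatic, lung, kidney and thyroid list.

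Oncofetal and liver cancer markers were mixed, with 10 of 21 counted. HMGA1, a chromatin protein of embryonic and tumour cells, led with 342 and 375 FPKM and ranked 206 and 203. The RNA-binding IGF2BP3 had 23.9 and 23 FPKM, IGF2BP2 had 12 and 12.5 FPKM and IGF2BP1 had 9.6 and 8.67 FPKM, so all 3 members of that fetal family were counted. The WNT antagonist DKK1 had 48.8 and 42.6 FPKM. GPC3, the glypican used as a marker of hepatocellular carcinoma, was at 0.02 and 0.01 FPKM, and the fetal growth factor IGF2 at 0.06 and 0.05 FPKM.

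Several keratins were abundant, while E-cadherin and EPCAM, both on the list of simple epithelial markers, were near 0. KRT8 stood at 1309 and 1315 FPKM and its partner KRT18 at 1123 and 1179 FPKM, ranking 71 and 83. The biliary keratins KRT7 (454 and 483 FPKM) and KRT19 (115 and 121 FPKM) followed, and KRT17 of basal epithelia had 213 and 224 FPKM. Of 45 keratin genes, 9 were counted (20%), and 5 of these reached 100 FPKM in both libraries. Of 36 simple epithelial markers, 24 were counted, or 66.7%, among them plakoglobin JUP (186 and 182 FPKM), the membrane mucin MUC1 (132 and 152 FPKM) and the epithelial ETS factor ELF3 (39.4 and 39.3 FPKM). E-cadherin CDH1 and the adhesion molecule EPCAM were each at 0.03 FPKM in both libraries. The splicing regulator ESRP1 was at 0.01 and 0.02 FPKM, while its paralog ESRP2 had 24.6 and 24 FPKM. The biliary and progenitor factor SOX9 had 0.26 and 0.23 FPKM. Of 20 cholangiocyte and progenitor markers, 9 were counted.

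The cadherin list holds classical cadherins, protocadherins and related genes, and leaves out the desmosomal cadherins. Of its 37 genes, 13 were counted (35.1%) and 0 reached 10 FPKM in both libraries. PCDH1 had 6.64 and 6.42 FPKM, the neuronal and mesenchymal cadherin CDH2 had 4.48 and 3.54 FPKM and the placental cadherin CDH3 had 2.45 and 2.34 FPKM. Desmosomal genes of the epithelial lists ranged widely. The desmosomal cadherin desmoglein DSG2 had 42.9 and 29.1 FPKM, desmoplakin DSP had 29.4 and 23 FPKM and plakophilin PKP3 had 28.8 and 27.5 FPKM. The desmocollins DSC2 and DSC3, of the simple epithelial and the squamous list, were at 0.1 FPKM or less in both libraries. Among tight junction genes, CLDN1 had 47.5 and 39.1 FPKM, CLDN7 had 13.9 and 14.8 FPKM and occludin OCLN had 0.4 and 0.46 FPKM.

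Mesenchymal genes were also split. Vimentin VIM, the intermediate filament of mesenchymal cells, had 339 and 350 FPKM and ranked 207 and 225. S100A4 and the galectin LGALS1 (315 and 391 FPKM) were the list's other most abundant members with tropomyosin TPM2 (218 and 254 FPKM). Fibronectin FN1 was at 0.11 and 0.09 FPKM, SPARC at 0.07 and 0.04 FPKM and the collagen chain COL1A2 was listed at 0 in both. In all, 16 of 28 mesenchymal genes were counted, or 57.1%, close to the 54.3% of all named genes. Of 19 stellate cell and fibroblast markers, 4 were counted. The small proteoglycans lumican LUM (211 and 196 FPKM) and decorin DCN (72.5 and 73.3 FPKM) and the matrix glycoprotein FBLN1 (203 and 197 FPKM) were abundant. The receptor PDGFRB (0.46 FPKM in each), COL3A1 (0.29 and 0.24 FPKM) and the retinol enzyme LRAT (0 and 0.02 FPKM) were under 1 FPKM, so 1 of the 4 defining members of that list was counted. Of 14 smooth muscle markers 8 were counted, with the actin ACTA2 at 5.1 and 5.69 FPKM and the myosin MYH11 at 0.05 FPKM in each.

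Squamous and mesothelial markers appeared in part. Stratifin SFN (263 and 308 FPKM) and TRIM29 (226 and 240 FPKM), both linked to stratified epithelia, ranked between 268 and 349, whereas the squamous master factor TP63 (0.12 and 0.1 FPKM), KRT5 (0.19 and 0.11 FPKM) and KRT14 (0.23 and 0.41 FPKM) did not reach 1 FPKM. In total 9 of 23 squamous markers were counted. Mesothelin MSLN had 52.7 and 58.7 FPKM, calretinin CALB2 had 6.18 and 7.06 FPKM and UPK3B had 12.4 and 15.3 FPKM, with WT1 at 0.02 and 0.01 FPKM; 6 of 18 mesothelial markers were counted. UPK3B shares sequence with its copies UPK3BL (7.87 and 12.6 FPKM) and LOC105375355 (4.72 and 3.9 FPKM), so its level is uncertain. SNCG, gamma-synuclein, was the highest of that list with 205 and 246 FPKM.

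Markers of the other cell types that a culture or tissue could hold were mostly under 1 FPKM. Of 17 endothelial markers 3 were counted, with PECAM1 at 0.52 and 0.62 FPKM and VWF at 0.07 and 0.03 FPKM. Of 25 leukocyte markers 3 were counted, led by the lysosomal protein CD68 (25.5 and 22.1 FPKM), while the pan-leukocyte PTPRC was at 0.07 and 0.02 FPKM. Of 12 erythroid markers 2 were counted, EPOR and HBA1, with HBB at 0.08 and 0 FPKM. The neuronal list had 4 of 19 counted, and its highest member STMN1 (206 and 225 FPKM) is also a gene of dividing cells. The neuronal tubulin TUBB3 had 14.8 and 15.7 FPKM and the neuronal enolase ENO2 had 10 and 11.2 FPKM. The synaptic gene SNAP25 had 1.84 and 1.79 FPKM. Of the intestinal and gastric list 0 of 18 were counted and of the pancreatic, lung, kidney and thyroid list 0 of 16, whose highest value was that of PAX8 at 0.75 and 0.69 FPKM. The melanocytic list had 1 of 8, the factor MITF (12.7 and 11.4 FPKM), which has forms outside melanocytes.

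Germline and stem cell genes were few. Of 28 cancer-testis genes, 8 were counted, or 28.6%. MAGEB2 had 38.1 and 37.5 FPKM, CT83 had 28.1 and 29.3 FPKM and PRAME had 12.7 and 14 FPKM. The near-identical MAGEA3 (2.66 and 2.69 FPKM) and MAGEA6 (2.69 and 2.76 FPKM) cannot be told apart with certainty. Of 16 pluripotency genes 4 were counted. SOX2 (0.03 and 0.02 FPKM) and NANOG (0.18 and 0.17 FPKM) were under 1 FPKM. POU5F1 was at 3.83 and 4.31 FPKM, but it has expressed pseudogene copies and its level is uncertain.

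The hepatocyte transcription factors were low at their defining members. HNF4A, the central regulator of hepatocyte identity, was at 0.55 and 0.6 FPKM, CEBPA at 0.7 and 0.92 FPKM and FOXA2 at 0.01 and 0.04 FPKM. These factors were thus below 1 FPKM in both libraries, although 14 of 28 genes on the list were counted. For HNF4A and CEBPA this depends on the level chosen. At 0.5 FPKM both passed and the list had 16 in place of 14, and it also had 16 after rescaling to TPM. The counted ones were led by factors that other cells also use: the secretory stress factor XBP1 (80.7 and 79.8 FPKM), CEBPB (46.7 and 53.1 FPKM) and ATF5 (28 and 29.1 FPKM). FOXA1 had 9.54 and 8.03 FPKM and GATA6 4.82 and 4.6 FPKM.

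Of 18 factors of the epithelial-mesenchymal transition 11 were counted (61.1%), near the 54.3% of all named genes. Those counted stood at low to moderate levels. TWIST2 had 17.4 and 19.1 FPKM, ZEB1 had 4 and 3.9 FPKM, TWIST1 had 3.24 and 3.32 FPKM, SNAI1 had 1.53 and 1.59 FPKM and SNAI2 had 1.34 and 1.07 FPKM. ZEB2 stood at 0.48 and 0.4 FPKM. In the list of YAP, TEAD and target genes 21 of 25 were counted (84%). The coactivator YAP1 had 185 and 158 FPKM and ranked 443 and 562, and its DNA-binding partners TEAD1, TEAD2, TEAD3 and TEAD4 each reached 10 FPKM in both libraries. Among target genes of YAP and TEAD, CYR61 had 39.4 and 41.9 FPKM, whereas CTGF had 0.07 and 0.06 FPKM and ANKRD1 had 0.58 and 0.41 FPKM.

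Other factor families differed in how many of their members were counted. Of the 40 stress and bZIP factors 33 were counted, led by the cold-shock protein YBX1 (489 and 516 FPKM), its paralog YBX3 (199 and 206 FPKM), the amino acid response factor ATF4 (177 and 216 FPKM) and the hypoxia factor HIF1A (159 and 123 FPKM). MYC had 101 and 100 FPKM, ranking 876 and 941, and MYCN was listed at 0 in both. KLF5 of proliferating epithelia had 81.2 and 73 FPKM against 3.09 and 2.85 FPKM for KLF4. TFAP2A, a factor of ectodermal and placental cells, had 57.9 and 60.5 FPKM, and its paralogs TFAP2B and TFAP2C were at 0.09 FPKM or less. The mitotic factor FOXM1 (69.7 and 70.2 FPKM) was the highest of 41 forkhead genes, of which 18 were counted. The hindlimb homeobox factor PITX1 had 42.8 and 45.9 FPKM. Of 19 SOX genes 5 were counted, with SOX15 highest at 25.7 and 26.6 FPKM. Among AP-1 subunits JUND (30.8 and 33.8 FPKM), FOSL2 (34.6 and 27.4 FPKM) and JUNB (31.3 and 29.6 FPKM) were the highest, and JUN had 1.1 and 0.95 FPKM.

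Of 48 nuclear receptors 25 were counted, or 52.1%. The orphan receptor NR2F6 had 61.6 and 75 FPKM, the fat-cell regulator PPARG 27 and 25.7 FPKM and the glucocorticoid receptor NR3C1 15.2 and 11.5 FPKM. Those of hepatocyte metabolism were low: NR1I2 and NR1I3, which sense xenobiotics, and the bile acid receptor NR1H4 were at 0.08 FPKM or less in both libraries, and PPARA was at 1.67 and 1.31 FPKM. The oestrogen receptor ESR1 was at 1.09 and 0.88 FPKM.

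HOX genes, which mark position along the body axis, were expressed from 3 of the 4 clusters. Of 37 HOX genes 16 were counted: 6 of 10 in HOXA, 6 of 10 in HOXB, 4 of 9 in HOXC and 0 of 8 in HOXD. The 3 highest by mean belong to posterior groups: HOXA11 had 25.3 and 26.6 FPKM, HOXA10 had 23.1 and 25.7 FPKM and HOXC10 had 21.5 and 21.7 FPKM. The central HOXB7, highest in HOXB, came next with 16.6 and 20.9 FPKM, and the posterior HOXA13 had 13.1 and 9.35 FPKM. The posterior HOXB13 had 1.22 and 1.29 FPKM. Within HOXA the genes numbered 1 to 4 were all under 1 FPKM. In HOXD the highest was HOXD9 with 0.56 and 0.48 FPKM, and 5 of its 8 genes were listed at 0 in both libraries.

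**Figure D4:**
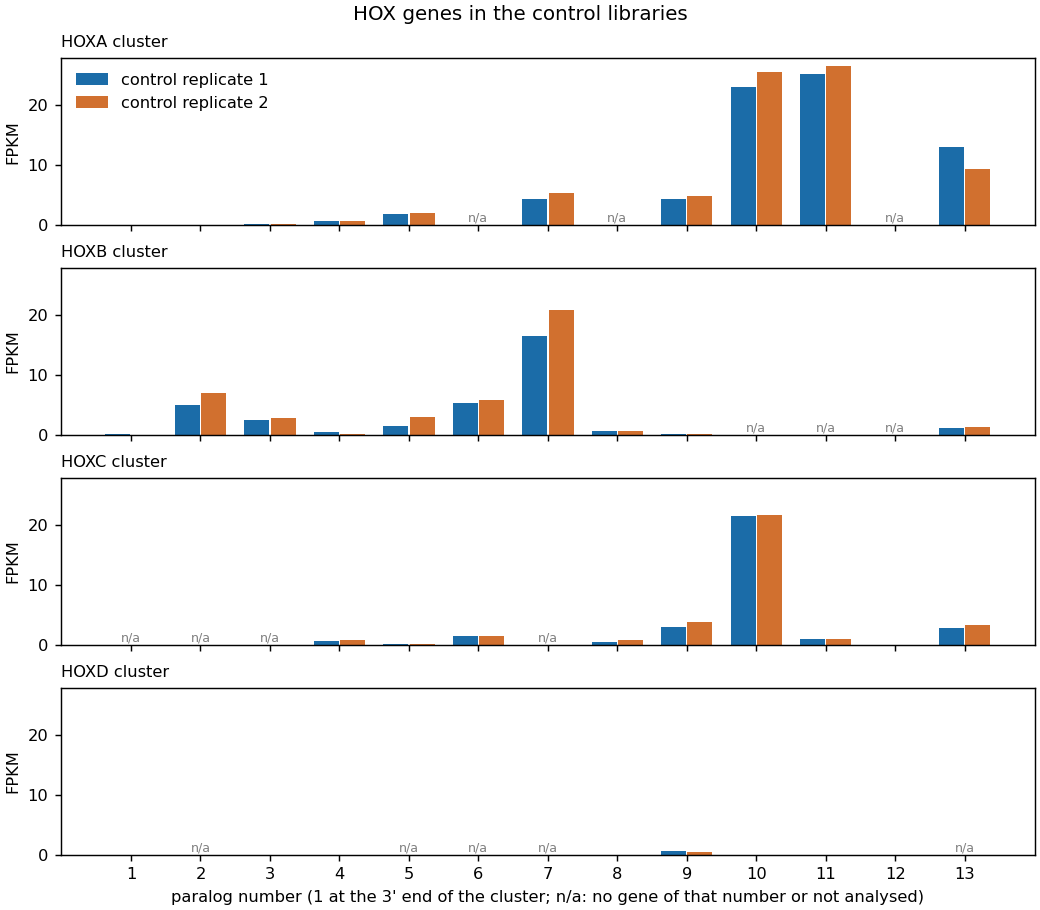
Bars give the FPKM of each HOX gene in control replicate 1 (blue) and replicate 2 (orange) by cluster and paralog number. HOXA10, HOXA11, HOXC10 and HOXB7 stand highest, between 16.6 and 26.6 FPKM, and no HOXD gene reaches 1 FPKM; n/a marks numbers with no gene in that cluster or a gene not analysed here.

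MET led the growth factor receptors, with ephrin receptors kept as a list of their own. Of 41 receptor tyrosine kinases outside that list 16 were counted, or 39%. MET, the hepatocyte growth factor receptor, had 40 and 36.6 FPKM, ranking 2310 and 2536, while its ligand gene HGF was at 0 and 0.04 FPKM. EGFR had 22.9 and 12.1 FPKM, among the larger differences between the 2 control libraries. AXL had 16.4 and 15.8 FPKM, FGFR4 10.1 and 10.4 FPKM, IGF1R 7.92 and 6.7 FPKM and FGFR1 6.38 and 5.66 FPKM. KIT and RET were at 0.02 FPKM or less, and FLT3 was listed at 0 in both. EPHA2, the highest of 22 ephrin receptors and ephrins, was above MET at 50.6 and 44.4 FPKM, and its ligand gene EFNA1 had 29.3 and 30.5 FPKM.

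Adhesion receptors included the beta-1 integrin ITGB1 at 280 and 229 FPKM and ITGB5 at 79.1 and 72.3 FPKM. The alpha chains ITGA3 (37.8 and 34.5 FPKM), ITGA6 (25.1 and 18.7 FPKM) and ITGA5 (24.4 and 21.4 FPKM) were the highest of the alpha subunits, which bind laminins and fibronectin. Of 26 integrin genes 11 were counted, and the leukocyte chains ITGAM, ITGAX and ITGB2 were at 0.16 FPKM or less. Small surface glycoproteins were the receptor group with the highest share, 31 of 38 genes (81.6%). The metalloproteinase inducer BSG had 549 and 573 FPKM, and TM4SF1, a tetraspanin-like antigen of carcinomas, had 543 and 510 FPKM, with TM4SF1 ranking 137 and 157. CD44, the hyaluronan receptor, had 71.4 and 67 FPKM. Of 12 syndecans and glypicans 6 were counted, with SDC1 at 39.5 and 37.1 FPKM and GPC1 at 21.4 and 20.1 FPKM.

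Cytokine receptors and the TNF receptor superfamily were counted for 24 of 42 and 11 of 28 genes. OSMR, the oncostatin M receptor, had 76.3 and 60.5 FPKM, IL20RB 50.3 and 55.3 FPKM and the interferon gamma receptor IFNGR1 30.4 and 26.4 FPKM. The TWEAK receptor TNFRSF12A had 104 FPKM in each library, the lymphotoxin receptor LTBR 71 and 73.4 FPKM and the TNF receptor TNFRSF1A 60.5 and 61.9 FPKM. Of 66 G protein-coupled receptors 22 were counted, or 33.3%, with the retinoid-induced GPRC5A at 76 and 67.4 FPKM and the chemokine receptor CXCR4 at 23 and 22.4 FPKM. The hepatic glucagon receptor GCGR was at 0.02 FPKM in each. TGFBR1 and TGFBR2, the receptors of TGF-beta, had 5.05 and 4.53 FPKM and 14.6 and 13.6 FPKM.

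Receptors that liver cells use for iron and lipoproteins were mostly counted, 13 of 19 genes (68.4%). The transferrin receptor TFRC had 217 and 174 FPKM and the high-density lipoprotein receptor SCARB1 78.7 and 76.8 FPKM. Among entry factors of hepatitis viruses, 7 of 12 were counted. For hepatitis C these included CD81 (127 and 140 FPKM), SCARB1 and CLDN1, but not occludin. SLC10A1, the entry receptor of hepatitis B virus, was at 0.04 FPKM in each library. Of 34 checkpoint ligands and surface inhibitors 20 were counted. The complement inhibitors CD55 (268 and 226 FPKM), CD46 (113 and 92 FPKM) and CD59 (51.8 and 50.1 FPKM) and the galectin LGALS3 (266 and 306 FPKM) were high, the phagocytosis inhibitor CD47 had 7.5 and 7.26 FPKM, and the T-cell inhibitor CD274 was at 0.03 FPKM in each.

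**Figure D5:**
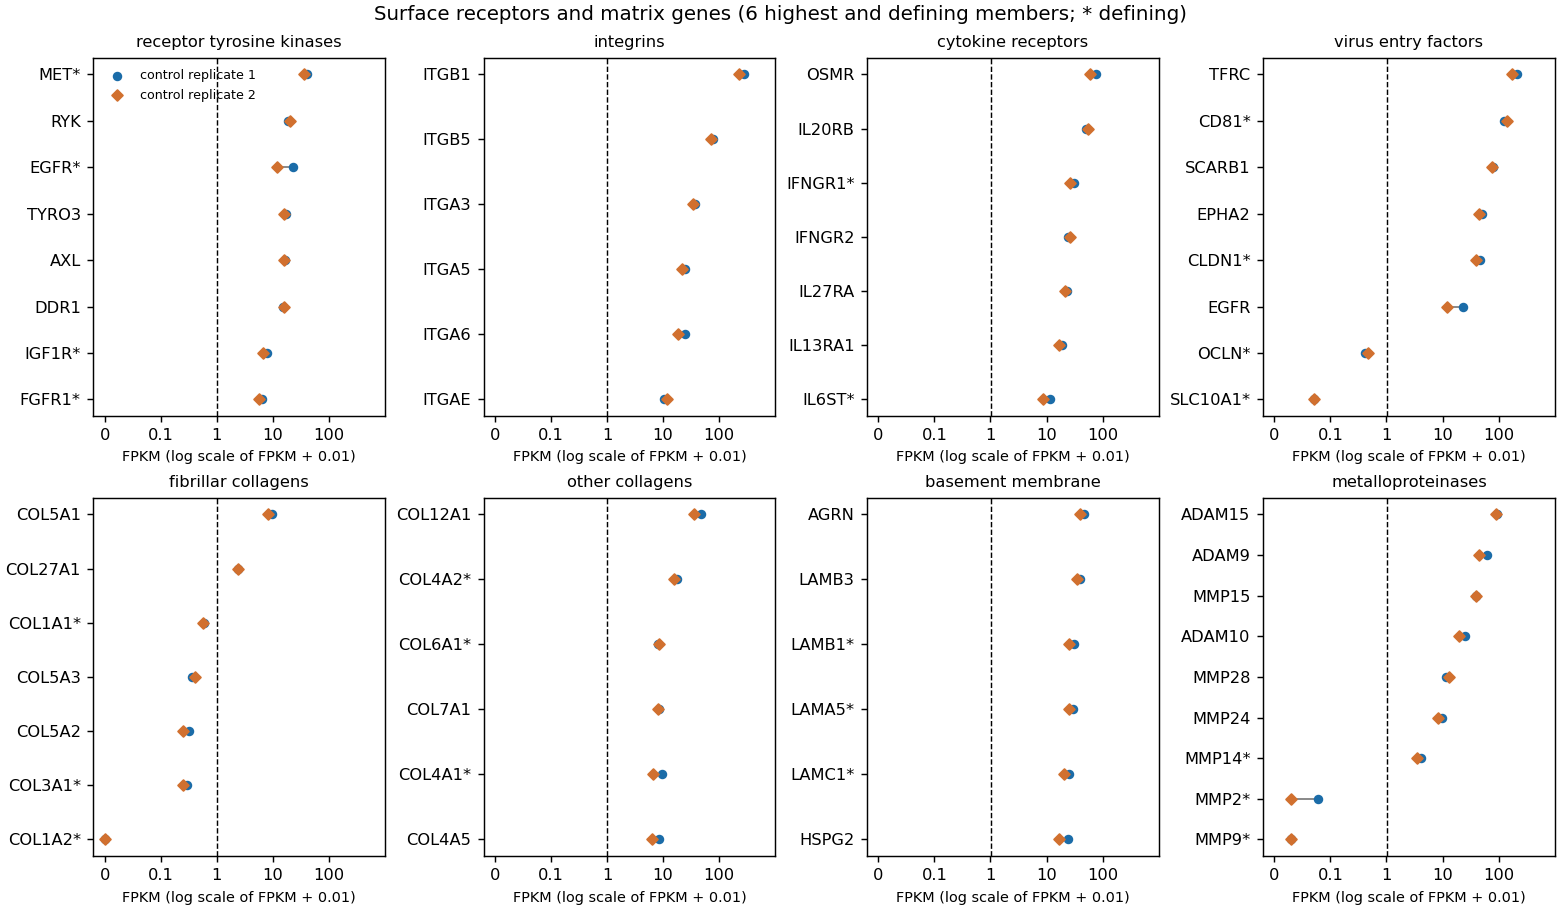
FPKM in control replicate 1 (blue circles) and replicate 2 (orange diamonds), on a log scale of FPKM + 0.01, for the 6 highest members and the defining members (asterisk) of 8 lists; the dashed line is 1 FPKM. MET leads the growth factor receptor list, which leaves out ephrin receptors, at 40 and 36.6 FPKM, ITGB1 the integrins at 280 and 229 FPKM, and COL1A2 is listed at 0 in both libraries.

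Few fibrillar collagen genes were counted, and the proteoglycan list held a few abundant members. Of 11 fibrillar collagen genes 2 were counted, COL5A1 (9.6 and 8.27 FPKM) and COL27A1 (2.35 and 2.42 FPKM). COL1A1 was at 0.58 and 0.55 FPKM. Of 33 other collagens 10 were counted. COL12A1, which associates with fibrils, had 48 and 35.6 FPKM, and the basement membrane chains COL4A2 and COL4A1 had 18.1 and 15.5 FPKM and 9.57 and 6.71 FPKM. Of 17 laminins and basement membrane genes 10 were counted (58.8%): AGRN had 46.9 and 40.4 FPKM, LAMB3 38.9 and 34.4 FPKM, LAMB1 31.3 and 25.4 FPKM and LAMA5 29.7 and 24.8 FPKM. LAMC1, the gamma chain shared by many laminins, had 25.6 and 20.3 FPKM. Of 23 matrix proteoglycan and hyaluronan genes 7 were counted (30.4%), with LUM and DCN the highest.

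Matrix glycoproteins were counted for 22 of 54 genes. FBLN1 was highest, and WISP2, a secreted signalling protein of the CCN family, had 75.7 and 81.2 FPKM, FBN2 of fetal microfibrils 67 and 44.3 FPKM and the integrin ligand NPNT 62.2 and 51.9 FPKM. Genes for collagen processing were counted more often, 20 of 27 (74.1%), with the chaperones P4HB (285 and 283 FPKM) and SERPINH1 (123 and 127 FPKM) at the top. Of 38 metalloproteinases and ADAMs 11 were counted. ADAM15 had 94.3 and 89.6 FPKM and MMP15 39.8 and 39 FPKM, MMP14 had 4.07 and 3.49 FPKM, and the gelatinases MMP2 and MMP9 were at 0.05 FPKM or less. Protease inhibitors included SLPI (189 and 250 FPKM), TIMP1 (128 and 149 FPKM) and TIMP2 (101 and 84.5 FPKM). The urokinase gene PLAU was at 0.08 and 0.06 FPKM although its receptor gene PLAUR had 17.5 and 17.1 FPKM. The lysosomal protease CTSD had 537 and 573 FPKM.

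Secreted ligands had a low share of counted genes, 53 of 165 (32.1%). MIF, a cytokine, had 621 and 810 FPKM, HDGF 562 and 596 FPKM, the activin antagonist FSTL3 215 and 216 FPKM and the interleukin IL18 162 and 160 FPKM. The stress hormone GDF15 had 64.3 and 71.8 FPKM, TGFB1 47.7 and 46.3 FPKM and VEGFA 41.7 and 42.2 FPKM. Of the WNT ligands, the highest were WNT5A (36.1 and 31.4 FPKM) and WNT7B (22.4 and 21.2 FPKM). The inflammatory IL6 (0.25 and 0.26 FPKM) and CXCL8 (0.23 and 0.24 FPKM) were under 1 FPKM, and CXCL1 and CXCL10 were listed at 0 in both.

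Glycolytic genes of the adult liver forms were mostly near 0, and those of the other forms were abundant. Of 9 glycolytic genes of the adult liver form 2 were counted, PFKL (50.4 and 47.1 FPKM) and KHK (3.94 and 4.5 FPKM). PKLR and the glucose transporter SLC2A2 were at 0.05 FPKM or less. Of 28 genes of the other forms 24 were counted, with PKM at 1635 and 1662 FPKM, ALDOA at 1295 and 1449 FPKM, SLC2A1 at 61.8 and 58.5 FPKM and HK2 at 12.4 and 9.54 FPKM. Of 52 ferritin, metallothionein and detoxification genes 42 were counted, among them NQO1 (312 and 344 FPKM), AKR1C3 (288 and 329 FPKM) and the metallothionein MT2A (227 and 308 FPKM). ALDH1A1 was listed at 0 in both.

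Of 45 cell cycle genes 44 were counted (97.8%). PCNA, the replication clamp, had 387 and 399 FPKM, CCNB1 142 and 140 FPKM and MKI67 32.6 and 27.1 FPKM. CDKN2A, which encodes the inhibitor p16, had 201 and 243 FPKM while RB1 had 14.2 and 11.1 FPKM, and the 1 gene not counted was cyclin CCND2 at 0.05 and 0.06 FPKM. Antigen presentation genes were split by class. B2M had 818 and 875 FPKM, HLA-C 85.6 and 85.3 FPKM and HLA-B 71.9 and 76.6 FPKM, and the HLA class I genes share sequence. The class II genes HLA-DRA and HLA-DPA1 were listed at 0 in both libraries, and their regulator CIITA was at 0.13 and 0.15 FPKM. Of the immunoproteasome subunits PSMB8 had 35.9 and 37.4 FPKM and PSMB9 had 0.78 and 0.75 FPKM.

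Low values were checked in families that every cell uses, since a 0 in such a table can be a failed estimate. All 77 mitochondrial ribosomal protein genes and all 12 RNA polymerase II subunits reached 1 FPKM in both libraries, as did 36 of 37 complex I subunits and 36 of 39 proteasome genes. The exception in complex I was NDUFA6, at 0.91 and 0 FPKM. In the proteasome they were PSMB9, PSMB11 and PSMA8, which are made in particular tissues or after interferon. The lysosomal protease CTSB was also low, at 3.05 and 0.99 FPKM, and HSPA1A had 1.25 and 0.9 FPKM beside 64.7 and 90.6 FPKM for its near-identical copy HSPA1B. A single gene listed at or near 0 is therefore given as listed and not as absent.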

How the data were processed

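Duplicate RNA-seq libraries of a control line and of 2 ZNF281 knockdown lines of HLE cells were deposited. Per the submitters' processing notes, the tools were RSEM (1.2.12), HISAT2 (2.0.4) and Bowtie2 (2.2.5), with hg38 and GRCh38.p11 as builds; what each was used for is not given in the sources used here. The deposited values were taken as FPKM, which is inferred: they are not whole numbers, have 2 decimals and sum to 530349 and 575887 in the control libraries, and no label gives the unit. Whether strand was counted is not given in the sources used here, so overlapping genes and near-identical copies are uncertain.

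Features without a gene name (1869) were left out. Genes were ranked by FPKM within each library and counted at 1 FPKM or more in both; no test was run, since 1 group is described. Each of 80 lists (2010 genes, 1964 of them in the table) was matched by the table's symbol, then by RefSeq symbol through the gene ID (19164 of 19503 IDs were found). The list of mitochondrially encoded genes had 0 members in the table and is not analysed here. The part described, the lists and the rule for named genes were chosen with earlier results of these data known. The rule names the 30 highest genes, each list's defining members and 6 highest members, the 10 genes with the largest ratio between control libraries in each direction among those at 10 FPKM or more in either, and ZNF281. Other members named, and every gene named outside a list, were chosen after their values were seen. Promoters came from RefSeq (GRCh38.p14), with entries on chromosome 8 left out, and transcript lengths from GENCODE release 29. Computations used Python 3.11.15 with pandas 2.3.3 and numpy 2.4.6. Other levels, pseudocounts (0.01 and 1 FPKM in place of 0.1), scalings and single libraries were tried. Every sample column of the table was matched to a sample of the series, with 0 left over. Not every gene under this rule is given in the text, and some are not reported here.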

Additional observations from a re-analysis of the deposited data

How the results depend on the processing

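No paired analysis was possible because 1 group is described with no test. The number of named genes counted as expressed (10585) ran from 8001 at a level of 5 FPKM to 13016 at 0.1 FPKM, was 11172 after rescaling each library to TPM, and was 10675 and 10720 with 1 library left out. The listed genes counted (946 of 1964) ran from 714 to 1237 over the same settings. Both totals moved by less than 1.5 times under every setting tried. Of the 80 lists, 63 had the same count from either library alone, and the largest gain was 2 genes. At TPM the largest gain was 6 genes, for the list of T-box, PAX and other homeobox factors (20 in place of 14), and HOXC had 6 in place of 4. At 5 FPKM, 34 of the 76 lists with a counted member moved by over 1.5 times, among them cadherins (3 in place of 13), HOXA (3 in place of 6) and HOXC (1 in place of 4). The share of summed FPKM in the 100 highest genes averaged 32.1%, was 24.3% without ribosomal protein genes, and was 30.8% and 33.4% in single libraries. The SD of the log2 difference between the libraries was 0.22, and 0.35 with no filter on low values. Among 222 ranks of abundant genes, 3 differed by over 1.5 times between the libraries. A setting without mitochondrially encoded genes was not run, because none was analysed here. The depth is unknown, so no detection limit can be given for values near 0, and 2 libraries limit the precision.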

Other observations

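Several abundant genes belong to no list and were chosen after their values were seen. A group of them encode proteins held on the outer membrane by a glycolipid anchor. ALPP, placental alkaline phosphatase, stood at 967 and 927 FPKM and ranked 88 and 99, and ALPI, the intestinal form, had 185 and 176 FPKM. ALPPL2, the germ cell form, had 4.28 and 3.22 FPKM, and ALPL, the liver, bone and kidney form, had 0.05 and 0.02 FPKM. ALPP, ALPI and ALPPL2 are near-identical neighbours on chromosome 2, so reads may have been divided between them and the split is uncertain. PRSS21, a protease of the testis, had 270 and 297 FPKM, PSCA 218 and 264 FPKM, LY6E 379 and 436 FPKM and LY6K, another testis gene, 169 and 196 FPKM. Among other unlisted genes, the neuropeptide gene GAL had 147 and 182 FPKM, the nicotinamide methyltransferase NNMT 213 and 231 FPKM, the epoxide hydrolase EPHX1 191 and 213 FPKM, the complement regulator C4BPB 157 and 178 FPKM and the kynureninase KYNU 155 and 146 FPKM.

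The largest ratios between the control libraries, among genes at 10 FPKM or more in either, included genes with close copies. EIF3CL had 14.6 and 113 FPKM, and its copy EIF3C had 283 and 211 FPKM. SULT1A3, of a duplicated pair, had 5.5 and 11.8 FPKM, and the histone gene HIST1H4K had 34.2 and 11.8 FPKM. Other genes with large ratios were AHRR (43 and 87.1 FPKM), SHMT1 (17.5 and 33.1 FPKM), POLR2A (37 and 19.1 FPKM), FOCAD (83.2 and 43.5 FPKM) and EGFR (22.9 and 12.1 FPKM). In all, 27 of the 10585 expressed genes differed by more than 2-fold.

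The 1869 features with no gene name held 1.35% and 1.37% of the summed FPKM, and 283 of them reached 1 FPKM in both control libraries. The highest had 994 and 1200 FPKM.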
